A study of Mus musculus with 6 samples.

Results

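The genes described here are the mouse genes whose symbol is Gpr followed by a number, a name given to receptors first recognised by their sequence. Of 22180 genes with a probe set of their own, 66 carry such a name. In 60 of these the probe set passed the filter on low intensity (above the 25th percentile of the array on at least 3 of 6 arrays), among 18458 genes that passed in all. RNA came from cells flow-sorted as inflammatory monocytes, CD11b-positive, CD11c-negative and Ly6C-high, taken from the spleen (n = 3 arrays) or the tumor (n = 3 arrays) of mice given Th9 cells, a helper T cell type, 10 days earlier, and was read on Mouse Gene 2.0 ST arrays. All mice had received Th9 cells, so nothing here compares treated with untreated animals, and the mouse strain and the kind of tumor are not named in the labels. Levels are log2(intensity + 1) with mean ± SD (n = 3), differences are tumor minus spleen on that scale with their SE, and calls were made where limma's p, after Benjamini-Hochberg adjustment over all 18458 genes, was under 0.05. Whether the samples of a group are from different mice is not said. The p-values then reflect only how far these samples spread, and that spread may be technical.

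G protein-coupled receptors are membrane proteins that bind a ligand outside the cell and switch on a G protein inside it, whose alpha subunit and beta-gamma pair then act on cyclic AMP or calcium. Receptor kinases and arrestins end the signal, and RGS proteins speed the return of the alpha subunit to its resting state. Many Gpr-named receptors have since been paired with lipids, metabolites, protons or peptides, and others remain orphans without an agreed ligand. On monocytes and macrophages members of the family sense oxysterols, fatty acids and acidity. Some proteins that carry the name, such as Gpr107, Gpr137b and Gpr155, sit in the Golgi or the lysosome and are not classical receptors.

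The libraries as a whole were read first. In each group the arrays numbered 1 and 2 had medians of 4.50 or 4.51, while those numbered 3 had 4.73 (spleen) and 4.76 (tumor), so differences are also given by array number. Itgam, which encodes the sort marker CD11b, was present in both groups, at 10.04 ± 0.15 in spleen and 9.19 ± 0.22 in tumor, as was Csf1r, a monocyte gene the sort did not use, at 11.39 ± 0.13 and 10.82 ± 0.10. Itgax encodes CD11c, which sorted cells were to lack on their surface, and it stood at 11.16 ± 0.12 and 10.31 ± 0.17, so its RNA was present in both groups. Ly6c2 was at 6.81 ± 0.58 in spleen and 8.29 ± 0.40 in tumor. Ccr2 was at 6.86 ± 0.09 and 5.93 ± 0.15, where the median level of the genes tested was 5.74. Of the genes of the sort markers and the monocyte genes Ccr2 and Csf1r, Ly6c2 rose and Itgam, Itgax, Ccr2 and Csf1r fell, while Ly6c1 was dim in both groups, at 3.65 ± 0.68 and 4.01 ± 0.40. Apart from Ccr2 these calls were lost on leaving out single arrays: Csf1r without any but tumor 3 (adjusted p up to 0.173), Itgam without spleen 2, tumor 1 or tumor 2 (up to 0.0801), Ly6c2 without spleen 1 or 2 (up to 0.0711) and Itgax without tumor 1 (0.0594). The number of arrays limits the precision.

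The Gpr genes that differed were mostly higher on the tumor arrays. Of the 60 tested, 9 were called higher (15%) and 3 lower (5%), while over all genes tested 5.73% were called higher and 4.85% lower. A change of at least 2-fold was called in 8 members on the higher side (3.74% of all genes) and 2 on the lower side (1.59% of all genes). The rises were those of Gpr84, Gpr33, Gpr141, Gpr141b, Gpr183, Gpr171, Gpr15, Gpr18 and Gpr4, and the falls those of Gpr160, Gpr146 and Gpr180. The other 48 were not called, and 36 of the 60 differed by less than 0.3 either way. The median difference of the members was 0.10, against -0.05 over all genes tested. Most members had dim probe sets, with 38 of 60 below the median level of the genes tested (5.74). Calls came from the brighter ones, at 10 of the 22 members above that median (45.5%, against 19.0% of all genes above it) and 2 of the 38 below it (5.26%, against 2.15% of all genes below it). In bulk RNA of sorted cells, fewer cells that express a gene and less of its RNA per cell cannot be told apart.

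**Figure D1:**
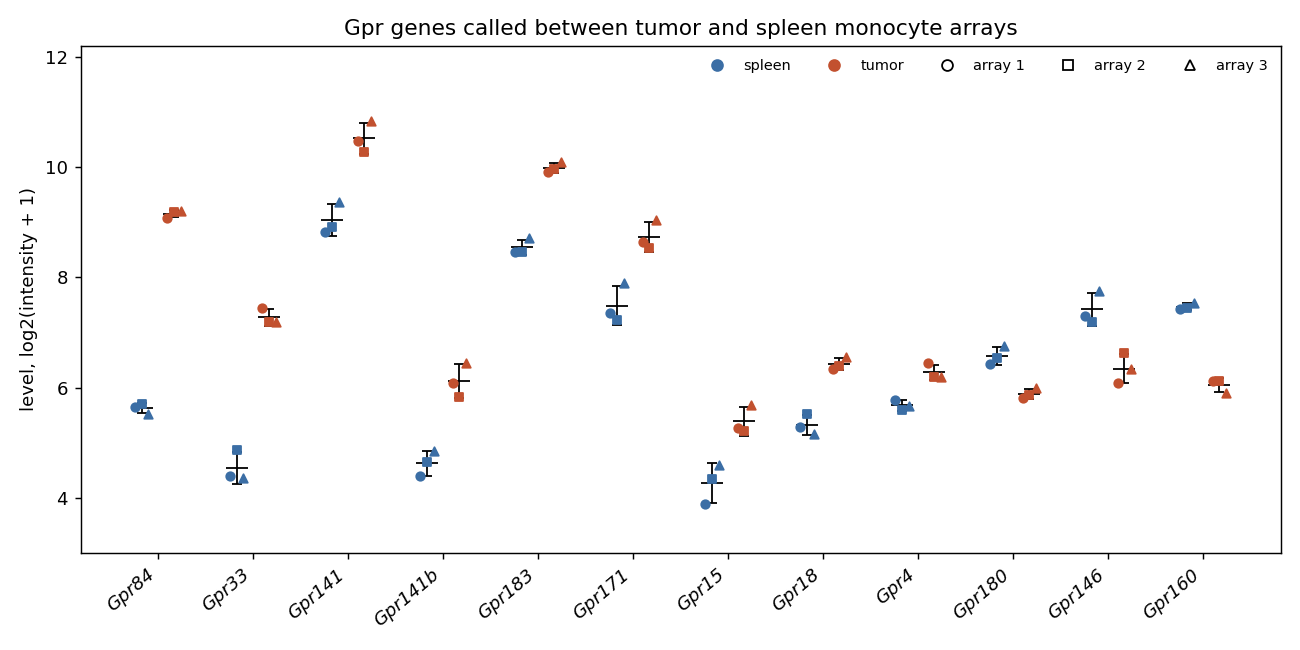
Level of the 12 called Gpr genes on each array, as log2(intensity + 1), with spleen in blue and tumor in red, a symbol for each array number, and bars for the mean and SD of 3 arrays. In each gene the 3 tumor points lie on 1 side of the 3 spleen points, and Gpr84 rises from between 5.52 and 5.70 to between 9.08 and 9.21.

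Receptors of lipids and metabolites held the largest change. Gpr84, a receptor of medium-chain fatty acids found on myeloid cells (probe set 17322355, Entrez gene 80910), had levels of 5.65, 5.70 and 5.52 on the spleen arrays and 9.08, 9.18 and 9.21 on the tumor arrays. Every tumor value stood more than 3 units above every spleen value, and the values within a group lay close together. The difference was 3.53 ± 0.14, an 11.6-fold rise on this scale (limma adjusted p = 2.5e-06), and it was 3.46 among the arrays numbered 1 and 2 and 3.69 in the pair numbered 3. Gpr183, the receptor through which immune cells follow the oxysterol 7-alpha,25-dihydroxycholesterol (probe set 17309649, Entrez gene 321019), stood at 8.46, 8.46 and 8.71 in spleen and at 9.91, 9.98 and 10.09 in tumor. It rose 2.73-fold, by 1.45 ± 0.15 (adjusted p = 4.4e-04). Gpr18, a receptor reported to bind N-arachidonoyl glycine and resolvin D2 (probe set 17309644, Entrez gene 110168), had levels of 5.30, 5.52 and 5.17 in spleen and 6.35, 6.39 and 6.56 in tumor, a rise of 1.10 ± 0.16 (adjusted p = 0.0028). The groups did not overlap in any of these genes.

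The other 6 tested receptors of this class were not called. Gpr55, a receptor of lysophosphatidylinositol, had non-overlapping groups at 7.95, 8.15 and 8.07 against 8.59, 8.54 and 8.45, a difference of 0.47 ± 0.14 (adjusted p = 0.0718). A fit that takes the replicate number as a block gave Gpr55 an adjusted p of 0.0102. Gpr35, a receptor of kynurenic acid and other small acids, pointed the other way at -0.50 ± 0.22 (adjusted p = 0.228, and 0.0099 with the block). Gpr34, which binds lysophosphatidylserine, differed by -0.67 ± 0.36 (adjusted p = 0.357, and 0.0161 with the block), and its spleen values ran from 4.32 to 5.69, the highest on the array numbered 3. Gpr31b, Gpr119 and Gpr17 differed by between -0.13 and 0.10. Gpr174, another lysophosphatidylserine receptor, did not pass the filter, with values from 3.11 to 3.50 on the 6 arrays.

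Outside the lipid class the largest rise was that of Gpr33, a receptor related by sequence to chemoattractant receptors and inactivated in most humans (probe set 17281071, Entrez gene 14762). Its levels were 4.40, 4.87 and 4.36 in spleen, where the probe set was near the 25th percentile of the genes tested (4.42), and 7.45, 7.19 and 7.18 in tumor. The difference of 2.73 ± 0.18 came to 6.65-fold (adjusted p = 4.1e-05), and background in spleen limits the size of such a fold. Gpr141, an orphan receptor of myeloid cells (probe set 17290894, Entrez gene 353346), stood at 8.83, 8.92 and 9.37 in spleen and 10.47, 10.27 and 10.83 in tumor, a rise of 1.49 ± 0.21 (adjusted p = 0.0026). Its neighbouring paralog Gpr141b (probe set 17290890, Entrez gene 319293) was dimmer, at 4.39, 4.66 and 4.84 against 6.08, 5.83 and 6.44. It rose by 1.48 ± 0.20 (adjusted p = 0.0023). The groups of all these genes were apart. Probe sets of paralogs can read each other's transcripts, and how far the probe sets of Gpr141 and Gpr141b do so was not tested.

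Among receptors of peptides and proteins 2 of 7 were called, both higher, where 5.73% of all genes tested were called higher. Gpr171, a receptor of the neuropeptide BigLEN that lymphocytes also carry (probe set 17405458, Entrez gene 229323), had levels of 7.35, 7.23 and 7.90 in spleen and 8.63, 8.53 and 9.04 in tumor. It rose by 1.25 ± 0.22 (adjusted p = 0.0088). A second, dimmer probe set of Gpr171 went from 4.44 to 4.80, a difference of 0.36, and with the mean of both probe sets the difference was 0.80 and the call was lost (adjusted p = 0.121). Gpr15, a homing receptor of T cells for gut and skin (probe set 17331212, Entrez gene 71223), was dim at 3.89, 4.35 and 4.59 in spleen and stood at 5.26, 5.22 and 5.69 in tumor. Its difference was 1.11 ± 0.22 (adjusted p = 0.0142, and 0.0506 without tumor array 1), and with a pseudocount of 16 it was 0.72 (adjusted p = 0.0217). Gpr75, Gpr83, Gpr182, Gpr25 and Gpr37l1 differed by between -0.15 and 0.13. Gpr37 did not pass the filter.

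Lymphocytes carry several of these receptors, so their markers are set beside the rises. Over all genes tested 5.73% were called higher and 4.85% lower, and with the block 11.7% and 17.3%. For marker counts at an unadjusted p under 0.05, here and below, the share over all genes is not given. Those counts therefore have no background to be read against. Of 10 T cell markers 8 were tested, with 0 higher and 1 lower (Cd3g) by limma (0 and 2 at an unadjusted p under 0.05, and 0 and 2 with the block), and their summed intensity ran from 336 to 382 on the spleen arrays and from 224 to 276 on the tumor arrays. Without Cd3g the T cell sums were 241 to 277 and 193 to 231. For 6 tested B cell markers the sums were 458 to 633 and 330 to 432, with 0 higher and 1 lower (Cd22), also at an unadjusted p under 0.05 and with the block. Without Cd22 the B cell sums were 99 to 167 and 95 to 148. The call of Cd22 was lost without any single array other than tumor 3 (limma adjusted p up to 0.146). Of 6 NK cell markers 5 were tested and 1 was higher, Klrc1 (2 at an unadjusted p under 0.05 and 2 with the block). Their sums were 108 to 193 in spleen and 300 to 497 in tumor, and without Klrc1 84 to 151 and 138 to 318, with Klrb1c below the filter. The part of NK cells in the rises was not tested.

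All 3 tested proton-sensing receptors, which signal when the surroundings turn acid, had tumor values above their spleen values, and 1 of them was called. Over all genes tested the groups did not overlap in 25.4%, and 5.73% were called higher. Gpr4 (probe set 17474529, Entrez gene 319197) had levels of 5.78, 5.59 and 5.66 in spleen and 6.44, 6.19 and 6.20 in tumor, a rise of 0.60 ± 0.15 (adjusted p = 0.0359). That call was weak, since it was lost among the arrays numbered 1 and 2 (adjusted p = 0.0609) and without spleen array 1, 2 or 3 or tumor array 1 or 2 (adjusted p up to 0.168). Gpr4 is best known from endothelium, and of 9 markers of endothelium and fibroblasts 1 was higher, Kdr (1 higher and 1 lower at an unadjusted p under 0.05 and with the block), with a median difference of -0.11. Their summed intensities were 634 to 680 in spleen and 801 to 1035 in tumor, and without Kdr 571 to 633 and 495 to 536. Their part in the difference of Gpr4 was not tested. Gpr65, which raises cyclic AMP in acid surroundings, had levels of 9.45, 9.50 and 10.11 in spleen and 10.62, 10.22 and 11.05 in tumor. Its difference of 0.94 ± 0.26 was larger than that of Gpr4 but missed the threshold (adjusted p = 0.0544). The arrays numbered 3 were the highest of both groups, and leaving out spleen array 3 or tumor array 2 alone gave a call. With the replicate block Gpr65 was called (adjusted p = 7.0e-04). Gpr132, a receptor of oxidised fatty acids that is grouped with the proton sensors, stood at 0.47 ± 0.17 (adjusted p = 0.138, and 0.0066 with the block).

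The 3 falls were those of 2 orphan receptors and of Gpr180. Gpr160, an orphan receptor (probe set 17396604, Entrez gene 71862), had levels of 7.43, 7.45 and 7.54 in spleen and 6.13, 6.12 and 5.90 in tumor. It fell by 1.42 ± 0.14 (adjusted p = 4.2e-04), a 2.68-fold change with the groups well apart. Gpr146, an orphan receptor that regulates cholesterol in the liver (probe set 17444002, Entrez gene 80290), stood at 7.30, 7.20 and 7.76 in spleen and 6.08, 6.62 and 6.34 in tumor. Its fall of 1.07 ± 0.21 (adjusted p = 0.0131) lost the call without tumor array 1 (adjusted p = 0.0684) and among the arrays numbered 1 and 2, where it stood at -0.90 (adjusted p = 0.0832) against -1.42 in the pair numbered 3. Gpr180, a membrane protein with a part in TGF-beta signalling (probe set 17302675, Entrez gene 58245), had levels of 6.43, 6.54 and 6.75 in spleen and 5.81, 5.86 and 5.99 in tumor. It fell by 0.68 ± 0.15 (adjusted p = 0.0231), and the call was lost without spleen array 1 or 2 or tumor array 1 or 2 (adjusted p up to 0.113).

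Gpr180 was the only called gene among 8 members that act at intracellular membranes or outside classical receptor signalling. Over all genes tested 4.85% were called lower and 5.73% higher. The lysosomal cholesterol sensor Gpr155 differed by -0.68 ± 0.27 (adjusted p = 0.183, and 0.0039 with the block). Its 2 other probe sets, both dim, stood at -0.17 and -0.05, and the mean of its probe sets at -0.30 (adjusted p = 0.567). Gpr137b, a lysosomal protein that acts on the Rag GTPases, stood at -0.41 ± 0.18 (adjusted p = 0.241, and 0.0142 with the block), and the probe set of its copy Gpr137b-ps at -0.62 ± 0.25. The copies may share probes. The Golgi proteins Gpr107 and Gpr108 had levels of 7.95 ± 0.29 and 8.65 ± 0.14 in spleen and of 7.95 ± 0.29 and 8.81 ± 0.18 in tumor. Their 95% intervals of the difference, -0.48 to 0.49 and -0.21 to 0.52, leave out a 2-fold change either way. Gpr143 and Gpr137c, both dim, differed by 0.05 and 0.12.

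The remaining members were mostly near background. Gpr157, an orphan receptor of the primary cilium, was the exception, at 7.91, 7.94 and 8.67 in spleen and 8.77, 8.95 and 9.37 in tumor. It differed by 0.86 ± 0.25 without a call (adjusted p = 0.0678), and the groups were apart only narrowly, the spleen array numbered 3 being the highest of its group. With the block it was called (adjusted p = 6.9e-04). Gpr161, the other ciliary member, stood at 0.15 ± 0.19, Gpr158 and Gpr179 of class C at 0.15 ± 0.23 and -0.09 ± 0.22, and Gpr12 and Gpr6, which signal through Gs without a ligand, at 0.14 ± 0.14 and 0.09 ± 0.18. None of these was called. Of 27 members in no other class 22 were not called, with differences from -0.44 (Gpr82) to 0.59 (Gpr85) and mean levels from 3.66 to 6.18. Among all 48 members without a call the 95% interval lay inside a 2-fold change for 39, and reached it for Gpr65, Gpr157, Gpr85, Gpr52, Gpr82, Gpr35, Gpr137b-ps, Gpr34 and Gpr155. Below the filter lay Gpr1, Gpr22, Gpr37, Gpr151, Gpr165 and Gpr174, with values between 2.98 and 4.02.

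**Figure D2:**
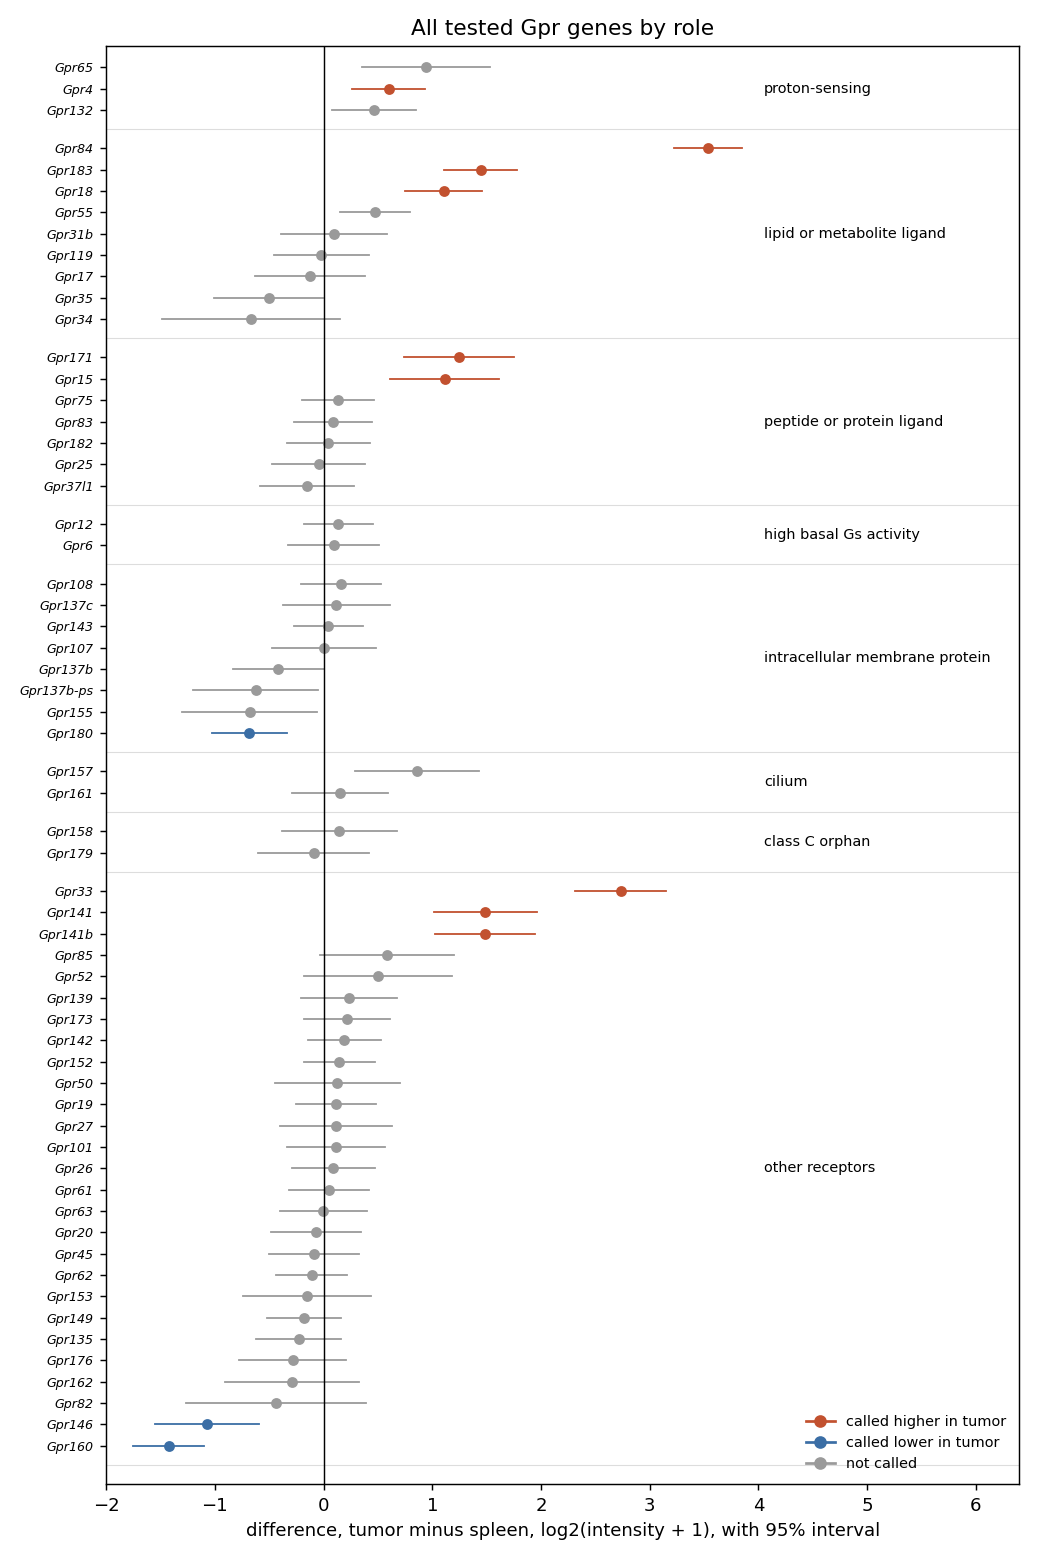
Difference between tumor and spleen of all 60 tested Gpr genes, grouped by role, as points on the log2(intensity + 1) scale with 95% intervals from the fit, red where called higher, blue where called lower and grey where not called. The 3 proton-sensing genes lie above 0, and the uncalled genes of the last group lie between -0.44 and 0.59.

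Groups that did not overlap were found in 18 of 60 members (30%), against 25.4% of all genes tested. Besides the 12 called genes these were Gpr65, Gpr157, Gpr55, Gpr132, Gpr137b and Gpr137b-ps. With the replicate number as a block, 14 members were higher and 9 lower, where 11.7% and 17.3% of all genes were. The 11 members that the block added were Gpr65, Gpr157, Gpr55, Gpr132 and Gpr85 on the higher side and Gpr155, Gpr34, Gpr35, Gpr82, Gpr137b and Gpr137b-ps on the lower side. All 12 called genes kept the call with the block. The members' differences had the same direction among the arrays numbered 1 and 2 and in the pair numbered 3 in each called gene.

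**Figure D3:**
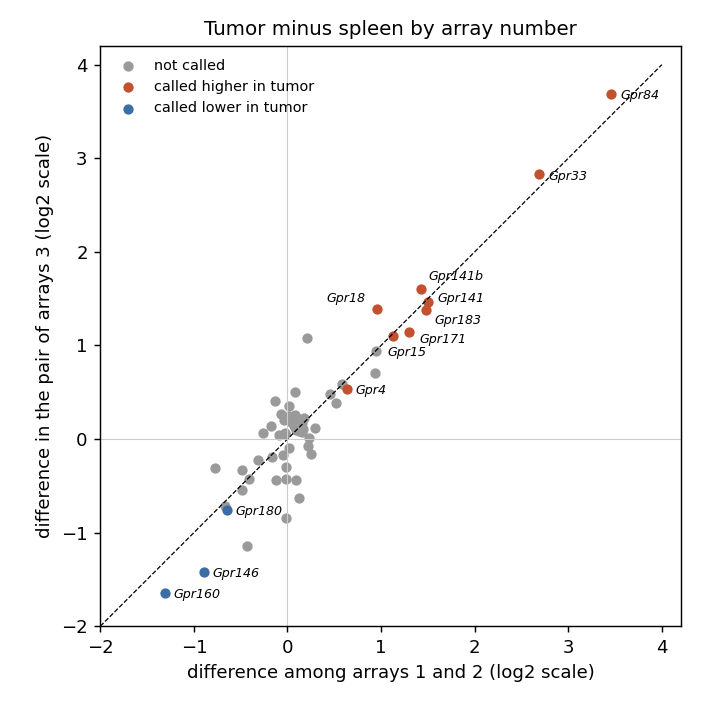
Difference between tumor and spleen in the pair of arrays numbered 3 against that among the arrays numbered 1 and 2, for the 60 tested Gpr genes, both on the log2 scale, with the dashed line marking equal values and colours as called over all arrays. Called genes lie near the line, and Gpr18 (0.96 and 1.39) and Gpr146 (-0.90 and -1.42) are farther from it than most of them.

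Several called genes are neighbours in the genome. Gpr18 and Gpr183 lie next to each other inside the gene Ubac2, by the RefSeq annotation GRCm38.p6, and both rose while Ubac2 was at 8.59 in spleen and 8.40 in tumor (difference -0.19 ± 0.17, adjusted p = 0.663). Gpr141 and Gpr141b are adjacent, and the next gene, Elmo1, differed by 0.22 ± 0.19. Gpr171 lies inside Med12l beside P2ry14, the receptor of UDP-glucose, which rose by 1.63 ± 0.16 (adjusted p = 4.2e-04), while Med12l itself stood at 0.47 ± 0.20 (adjusted p = 0.212). Cldnd1, next to Gpr15, rose by 1.18 ± 0.21 (adjusted p = 0.0097), from 9.27 to 10.45. Gpr146 overlaps 3110082I17Rik, which fell by 0.88 ± 0.21 (adjusted p = 0.0292), and the next gene, C130050O18Rik, fell by 1.12 ± 0.26 (adjusted p = 0.0292). A dim probe set that names Gpr146 together with D830046C22Rik, left out of the fit, went from 4.82 to 4.96, a difference of 0.14. Without strand information for the probe sets, transcripts of overlapping genes may not be separated. The neighbours of Gpr84, Gpr33, Gpr160, Gpr180 and Gpr4 on either side were not called. Nor was Cpox, on the other side of Gpr15 from Cldnd1 (0.13). Called neighbours also lay beside members without a call, such as Usp12 by Gpr12 (1.33), Daam1 by Gpr135 (1.23) and Slc45a4 by Gpr20 (-0.96). Gpr34 and Gpr82, also adjacent, both had negative differences without a call, inside the gene Cask, which stood at 0.62 ± 0.18 (adjusted p = 0.0668).

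The upstream regions of 4 genes that rose are printed because they hold the letters of an interferon or NF-kB motif, both searched for on both strands in 250 bases before to 50 bases after each start. The interferon-stimulated motif was searched as GAAANNGAA and the NF-kB motif as GGGANNTTC, where N is any base, and an AP-1 motif as TGANTCA. Sequences are from RefSeq, build GRCm38.p6, cover the 250 bases before the start, read 5′ to 3′ in the gene's direction, and show matches in capitals. In Gpr84 the capitals are NF-kB letters at -134 and -37 from the start, in Gpr18 and Gpr141b interferon letters at -41 and -12, and in Gpr15 interferon letters at -213 and AP-1 letters at -199.
Gpr84 (chr15:103310439-103310688, minus strand): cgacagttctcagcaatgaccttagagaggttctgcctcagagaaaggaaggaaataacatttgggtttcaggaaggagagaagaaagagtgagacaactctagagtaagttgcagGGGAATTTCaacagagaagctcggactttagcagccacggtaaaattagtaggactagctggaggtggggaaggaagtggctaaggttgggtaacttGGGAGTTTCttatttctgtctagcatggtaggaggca
Gpr18 (chr14:121915889-121916138, minus strand): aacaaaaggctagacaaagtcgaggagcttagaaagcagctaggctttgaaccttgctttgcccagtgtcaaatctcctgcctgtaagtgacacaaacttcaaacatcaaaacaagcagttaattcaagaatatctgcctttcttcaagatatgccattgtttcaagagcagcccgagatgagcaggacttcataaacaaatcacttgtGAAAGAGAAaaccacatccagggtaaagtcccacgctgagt
Gpr141b (chr13:19732952-19733201, minus strand): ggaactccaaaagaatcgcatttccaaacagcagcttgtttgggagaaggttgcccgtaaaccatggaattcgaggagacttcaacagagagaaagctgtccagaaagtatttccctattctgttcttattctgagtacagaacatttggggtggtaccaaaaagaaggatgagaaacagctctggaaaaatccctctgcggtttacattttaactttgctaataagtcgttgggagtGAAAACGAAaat
Gpr15 (chr16:58718873-58719122, minus strand): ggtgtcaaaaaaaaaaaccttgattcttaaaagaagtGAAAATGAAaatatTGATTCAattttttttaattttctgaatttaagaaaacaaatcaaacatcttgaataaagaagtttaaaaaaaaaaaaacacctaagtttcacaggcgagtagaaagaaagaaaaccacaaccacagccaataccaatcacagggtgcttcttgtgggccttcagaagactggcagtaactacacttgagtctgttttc

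The table holds 57 promoters of 44 of the tested members. Interferon letters occurred in 3 of the 8 promoters of genes that rose and 0 of the 5 of genes that fell, in 7 of 57 promoters of members (12.3%) and in 8.56% of all 32851 promoters of the same length. NF-kB letters occurred in 1 of the 8, 1 of the 5 (at 1 of the starts of Gpr146), 4 of 57 (7.02%) and 3.94% of all. AP-1 letters were found in 3 of 57 (5.26%, all promoters 7.81%), the cyclic AMP motif TGACGTCA in 1 of 57 (1.75%, all 1.79%) and the PU.1 letters GAGGAA in 14 of 57 (24.6%, all 28.3%). Gpr183, Gpr141 and Gpr33 held no interferon or NF-kB letters in this window. The matches are a description of the letters and show no binding.

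The genes that carry receptor signals are set against the 10.6% of all genes called in either direction. Counts with the block are to be read against 11.7% of all genes higher and 17.3% lower in that fit. For counts at an unadjusted p under 0.05 the share over all genes is not given here. Among 14 tested G protein alpha subunits 0 were higher and 1 was lower by limma (1 and 2 at an unadjusted p under 0.05, and 1 and 3 with the block), namely Gna12. Gna12 stood at 9.54, 9.48 and 9.76 in spleen and 8.39, 8.39 and 8.27 in tumor, a fall of 1.24 ± 0.15 (adjusted p = 0.00104). Of 13 beta and gamma subunits 2 were higher and 0 lower by limma (2 and 1 at an unadjusted p under 0.05, and 2 and 3 with the block). Gnb4 rose by 1.40 ± 0.20 (adjusted p = 0.00302) and Gng4 by 0.75 ± 0.16 (adjusted p = 0.0212, and up to 0.0873 without spleen array 1, spleen array 2 or tumor array 2). The medians of both lists were -0.00 and -0.05, close to the -0.05 of all genes.

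Among regulators that end receptor signalling, the called RGS genes were higher and the called receptor kinases and arrestins lower. Of 17 tested RGS genes 2 were higher and 0 lower by limma (2 and 2 at an unadjusted p under 0.05, and 2 and 2 with the block). That share of limma calls is close to the 10.6% of all genes called in either direction, and the median of the list was -0.03. Rgs1, which damps chemokine receptor signals, had levels of 8.92, 8.91 and 8.81 in spleen and 10.26, 9.96 and 10.03 in tumor, a rise of 1.21 ± 0.15 (adjusted p = 0.0012), and Rgs14 rose by 0.67 ± 0.15 (adjusted p = 0.0246, and up to 0.115 without any single array other than spleen 3). Receptor kinases and arrestins had 0 higher and 3 lower of 8 by limma, with 0 and 3 at an unadjusted p under 0.05, 0 and 5 under the block and a median of -0.46. The beta-arrestin gene Arrb1 stood at 10.22, 10.24 and 10.35 in spleen and 9.31, 9.47 and 9.51 in tumor, a fall of 0.84 ± 0.14 (adjusted p = 0.0063). The receptor kinases Grk5 (-0.69 ± 0.18) and Grk6 (-0.78 ± 0.20) passed narrowly (adjusted p = 0.0428 and 0.046) and lost the call without any single array other than tumor 3 (up to 0.165 and 0.188).

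In the cyclic AMP pathway 1 of 26 tested genes was higher and 2 were lower (4 and 4 with the block), with a median of -0.02. Pde7b, which breaks down cyclic AMP, rose by 1.60 ± 0.23, from 7.67 ± 0.36 to 9.27 ± 0.28 (adjusted p = 0.0028). Adcy7, an adenylyl cyclase of immune cells, fell by 0.84 ± 0.15 (adjusted p = 0.0096, and 0.0583 without tumor array 1), and the kinase subunit Prkar2a by 1.07 ± 0.26 (adjusted p = 0.0358, and up to 0.149 without any single array other than tumor 3).

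The enzymes that make and remove the ligand of Gpr183 differed in size and direction. Ch25h, which makes 25-hydroxycholesterol, stood at 8.36, 8.53 and 8.57 in spleen and 11.85, 11.80 and 11.76 in tumor. It rose by 3.32 ± 0.14 (adjusted p = 3.7e-06), beside the rise of Gpr183 by 1.45. With the mean of its probe sets the rise of Ch25h was 1.94, also called (adjusted p = 7.8e-05). Cyp7b1, which adds the second hydroxyl group that the ligand needs, was dim in both groups, at 3.87 and 3.83. Its difference had a 95% interval of -0.44 to 0.36, which leaves out a 2-fold rise on this scale, while a fall may not be detectable so near background. Hsd3b7, which converts the ligand to an inactive form, fell by 0.93 ± 0.24 (adjusted p = 0.0464), a call lost with a pseudocount of 16 (adjusted p = 0.0532), with no filter and without any single array other than tumor 3 (adjusted p up to 0.189). Cyp27a1 and Cyp46a1, which make other oxysterols, were not called. The 5 genes of this list therefore had 1 higher and 1 lower, where 5.73% and 4.85% of all genes were.

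Receptors that once had a Gpr symbol and now carry another, some after a ligand and others, such as the adhesion receptors and Lgr4 and Lgr5, after their structural class, had 3 higher and 1 lower of 26 (3 and 3 with the block), with a median of -0.05. The shares of all genes were 5.73% higher and 4.85% lower, and 11.7% and 17.3% with the block. Besides P2ry14, Hcar2, the receptor of niacin and beta-hydroxybutyrate, had levels of 6.09, 6.18 and 6.61 in spleen and 7.66, 7.71 and 7.95 in tumor, a rise of 1.48 ± 0.18 (adjusted p = 0.0014). Ffar4, a receptor of long-chain fatty acids, rose by 0.75 ± 0.17 (adjusted p = 0.0282, and up to 0.121 without any single array other than spleen 3). Ffar2, a receptor of short-chain fatty acids, fell by 1.35 ± 0.23, from 5.54, 5.46 and 6.26 to 4.55, 4.28 and 4.40 (adjusted p = 0.0065). The fatty acid receptors thus did not share a direction, with Gpr84 and Ffar4 higher and Ffar2 lower.

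**Figure D4:**
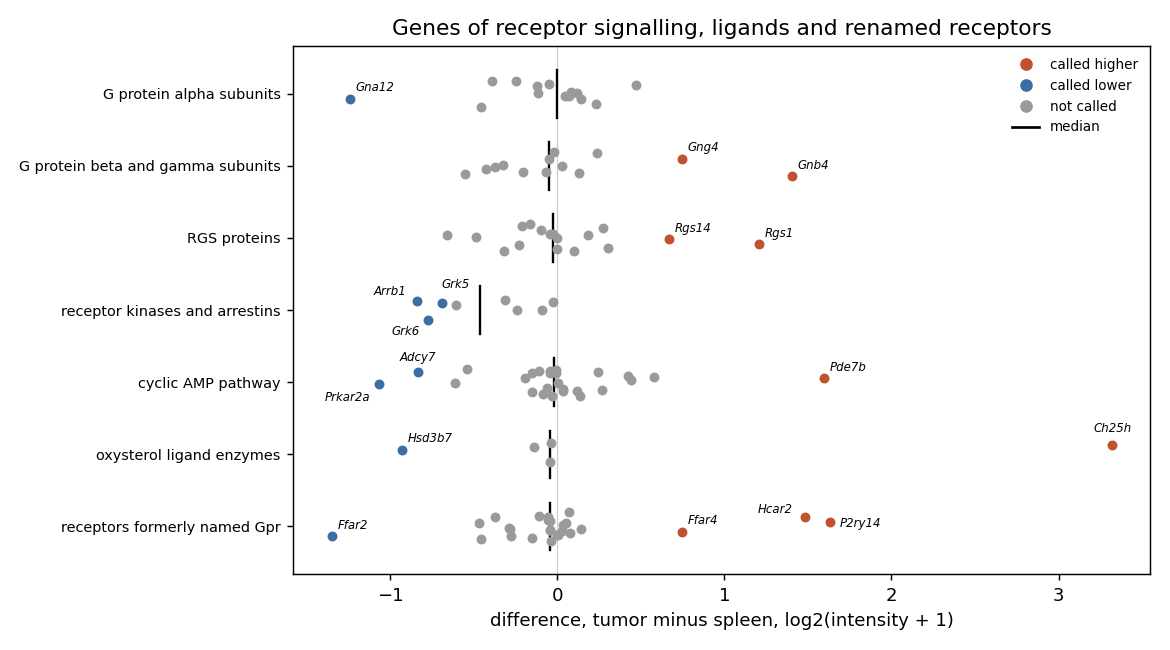
Difference between tumor and spleen on the log2(intensity + 1) scale for each tested gene of 7 lists of G protein signalling, oxysterol enzymes and renamed receptors, with called genes named and coloured and a black bar at each list's median. Medians lie near 0 except for receptor kinases and arrestins (-0.46), and Ch25h stands farthest out at 3.32.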

How the data were processed

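The table the authors deposited holds, for each probe set, a linear intensity on each array. It was made with RMA per the submitters' processing notes, with version, settings and genome build not given in the sources used here. Array medians differ, so the values do not lie on 1 distribution. Of 41345 probe sets, 23521 carry 1 gene symbol in the platform annotation, 1814 several and 16010 none, and only the first kind was used. Probe sets that name a Gpr gene among several symbols (10) were left out. A gene was read from its probe set of highest mean log2 level (4 members had more than 1), and tested if above the 25th percentile of the array on at least 3 arrays. All 60 tested members had the same symbol in RefSeq by gene identifier. Values were log2(intensity + 1), which understates folds of dim genes.

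Tumor was compared with spleen across all genes with lmFit and eBayes (limma 3.58.1, run under R 4.3.3), two-sided and with group as the only term, using Benjamini-Hochberg adjustment, and the fit was tested on simulated data. With 3 arrays a group, no exact permutation test could reach a p under 0.1. As a check of pairing, each array's deviations from its group mean were correlated with those of its like-numbered partner, giving r of 0.361, 0.440 and 0.709 over genes for numbers 1, 2 and 3, so a fit blocked on the replicate number is given where it changes a call. What a shared number means is not stated in the labels, and the arrays numbered 3 stand apart in both groups. Spleen 1 with tumor 2 correlated at 0.463 and spleen 2 with tumor 1 at 0.347. These r therefore do not tell the pairs numbered 1 and 2 from each other.

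The members, role classes, lists, markers and motifs were chosen with earlier results of these data known. Named genes were every called member, the 2 of smallest p in classes without a call, the 10 members with the highest levels, genomic neighbours, up to 3 called genes per direction of each list, and the genes of the sort markers, Ccr2 and Csf1r; others were named after their values were seen. Alternatives were other scalings, pseudocounts, filters, probe set and prior choices, the block, arrays 1 and 2 only, an adjusted p under 0.01 and each array left out. Of the marker lists not described with the receptors, limma called 1 lower of 8 neutrophil markers (Mmp9), 1 higher of 6 dendritic cell markers (Zbtb46), 0 of 5 of eosinophils and mast cells (0 higher and 1 lower at an unadjusted p under 0.05 and with the block), 1 lower of 4 of red cells and platelets (Ppbp) and 0 of 7 of epithelium and melanocytes (0 at an unadjusted p under 0.05, and 1 lower with the block). The shares of all genes tested were 5.73% higher and 4.85% lower by limma, and 11.7% and 17.3% with the block. Zbtb46 lost its call without spleen array 1, spleen array 2 or tumor array 2 (limma adjusted p up to 0.0627). Protein features were not analysed here.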

Additional observations from a re-analysis of the deposited data

How the results depend on the processing

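Across 16 other fits, 7 of the 12 calls held in every one (Gpr84, Gpr33, Gpr141, Gpr141b, Gpr183, Gpr18 and Gpr160), and no called member changed direction. Leaving out arrays could not change the direction, since the groups did not overlap in any called member. The count of members higher in tumor was 9, and 14 with the replicate block. The count lower was 3, and 6 with quantile normalization, 6 with median centring, 9 with the replicate block and 1 at an adjusted p under 0.01. Calls over all genes changed as well, in either direction together. They numbered 1952 in the main comparison, 3506 with quantile normalization, 3289 with median centring and 5346 with the replicate block. Leaving out each array in turn gave 7 to 10 higher and 1 to 3 lower, the lowest of both without tumor array 1, where Gpr15, Gpr4, Gpr146 and Gpr180 were not called. Calls over all genes in these fits ran from 1011 (without tumor array 1) to 1924 (without tumor array 3). The higher share of called members was 75% in the main comparison, 64.7% with quantile normalization, 66.7% with median centring and 60.9% with the replicate block. Quantile normalization, median centring and cyclic loess each added Gpr65 and Gpr157 on the higher side. Median centring and cyclic loess also added Gpr132 there, and quantile normalization and median centring added Gpr137b, Gpr155 and Gpr35 on the lower side. The trended and robust prior lost Gpr4 (adjusted p = 0.0505). The median difference of the members lay between 0.05 and 0.11 in all these fits. Leaving out tumor array 3 moved the median of all genes from -0.05 to -0.13. Dim probe sets limit what can be seen in most of the family, since 18 of 60 members had mean levels under the 25th percentile of the genes tested.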
